A study of Mus musculus with 4 samples.

Results

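The messages of non-muscle myosin II and of the tropomyosins were followed between the pseudopodia and the cell bodies of the mouse embryo fibroblast line NIH/3T3. The genes are 2 myosin heavy chains (Myh9 and Myh10), 4 light chains (Myl6, Myl9, Myl12a and Myl12b) and 4 tropomyosins (Tpm1, Tpm2, Tpm3 and Tpm4). Their members are the 27 probe sets, of 45037 that are not controls, whose only gene symbol in the platform annotation is one of these 10 genes. The annotation and no measured value set which probe sets belong to these genes. The genes themselves were listed with earlier results of these data known. Total RNA was read on 4 Affymetrix Mouse430_2 arrays, 2 of pseudopodia and 2 of cell bodies. In both groups, cells in serum-free medium sat on a porous membrane whose underside alone carried fibronectin, a matrix protein that integrins bind, and extended protrusions across it for 1 h. After fixation in 0.3% formaldehyde, the compartment not wanted was removed manually and the remaining one was collected for reversal of the crosslinks. No cells without fibronectin were analysed here, so the arrays compare compartments of stimulated cells and not a response to the matrix. Nothing says that the arrays of a compartment came from separate cultures, so the tests rest on a spread between samples that could be purely technical.

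Non-muscle myosin II is the motor that slides actin filaments past each other and gives fibroblasts their contractile force. Its heavy chain carries the motor head and the tail that assembles into bipolar filaments, an essential light chain stiffens the neck, and phosphorylation of the regulatory light chain by Rock1, myosin light chain kinase and other kinases switches the motor on. Tropomyosins are coiled coils that lie along actin filaments and govern which myosins and severing proteins reach them. In a spreading fibroblast, myosin II and tropomyosin-coated filaments are typical of stress fibres and of the zone behind the leading edge, while the outermost edge is built by branched actin.

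None of these messages passed the test for a difference between pseudopodia and cell bodies. Of the 27 probe sets, each a group of short probes to 1 stretch of transcript, 23 were bright enough to test (a mean intensity of at least 42.0, the median of all non-control probe sets), at least 1 for each of the 10 genes, and limma with Benjamini-Hochberg adjustment over 22519 probe sets called 0 of them. In the same fit 11.7% of all tested probe sets were called, 4.30% higher in pseudopodia and 7.44% lower, and among the tested probe sets with a mean intensity of at least 1000, 10.3% were called. At an unadjusted p under 0.05 there were 2 members, 1 of Myh9 and 1 of Tpm1, both lower in pseudopodia. The differences of the 23, pseudopodia minus cell bodies on the log2(intensity + 1) scale, ran from -0.84 to 0.36, with 11 above 0 and 12 below it, and their median was -0.012 against -0.0038 over all tested probe sets. Their median size, whatever the sign, was 0.19 on the log2 scale, against 0.30 over all tested probe sets and 0.19 over the 4615 with a mean of at least 1000. The arrays of the compartments did not overlap at 12 of the 23 (52.2%), 6 in each direction, while they did not overlap at 59.6% of all tested probe sets.

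A missed threshold does not show equal levels, so the 95% intervals of the differences matter here. They are limma's intervals for single probe sets, with no adjustment for their number. For 20 of the 23 probe sets the interval lay wholly inside a 2-fold difference in either direction, and for 9 inside a 1.5-fold difference. Over all tested probe sets these shares were 61.9% for 2-fold and 21.6% for 1.5-fold. Among those with a mean intensity of at least 1000 they were 82.0% and 45.9%. The other 3, of Myh9, Myl6 and Tpm1, are dim, were lower in pseudopodia on both arrays, and allow a cell body excess of up to 3.11-fold, 2.37-fold and 2.32-fold.

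**Figure D1:**
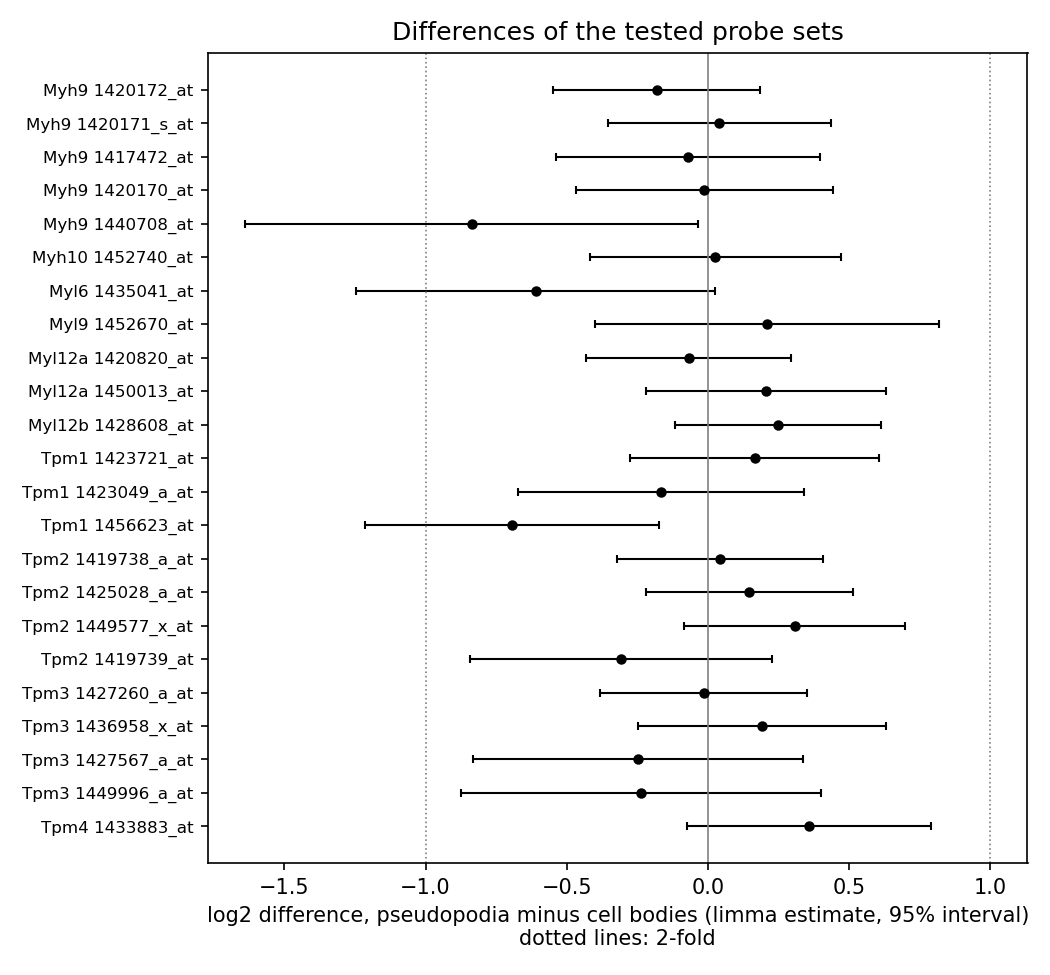
Log2 difference between pseudopodia and cell bodies for each of the 23 tested probe sets (horizontal axis; points are limma estimates from 2 arrays a group, bars their 95% intervals, dotted lines 2-fold). Most intervals span 0 and stay inside 2-fold; those of Myh9 1440708_at, Myl6 1435041_at and Tpm1 1456623_at reach past it on the cell body side.

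All values are linear probe set intensities, 1 array a sample, with a floor of 20 that 30.5% to 34.8% of the non-control probe sets of an array shared. Median intensities were 40.5 to 45.6 across the arrays and the highest value was 15025, so the brightest members sit near the top of the scale, where a difference can be compressed. The calls were 969 higher and 1676 lower in pseudopodia. Of 16 fibroblast markers, each read by its brightest probe set, 13 were tested. Of these, 6 fell in pseudopodia (among them Col1a1, Col6a1 and Pdgfrb) and 0 rose, against 6.89% and 4.25% of all 11320 tested genes. Vim and Lgals1 were bright on every array, and the fibroblast surface marker Thy1 and Lum lay at the floor throughout. The summed intensity of the fibroblast markers was 63421 to 65322 in pseudopodia and 84887 to 95939 in cell bodies. For 10 epithelial markers it was 1009 to 1125 against 1208 to 1298, with Epcam at 248 to 604, Cldn3 at 215 to 356, Cdh1 at 110 to 211, Krt8 at 96.5 to 165, and Esrp1 and Krt18 at the floor. For the 9 haematopoietic markers on the array it was 1101 to 1124 against 1174 to 1364, most of it from Cd14 at 680 to 979, with Csf1r at 111 to 139, Itgam at the floor on all 4 arrays and Ptprc at the floor on 3 of them. For 12 skeletal muscle markers it was 865 to 945 against 868 to 900, with Acta1 at 407 to 453, and Myog, Myh1, Myh3 and Tnnt3 at the floor. For 9 smooth muscle markers it was 8409 to 8736 against 8544 to 10250, most of it from Acta2 at 7061 to 8642, with Myocd at the floor. For the Actb control, signal at the 3' end over that at the 5' end on the log2 scale, a measure of RNA integrity, was 0.56 and 0.65 in pseudopodia against 0.37 and 0.36 in cell bodies. For the Gapdh control it was -0.075 and -0.066 against -0.095 and -0.098, and the part of either in the values below was not tested. A level is a share of the RNA on the array, so how much RNA a pseudopod or a cell body held cannot be read from it.

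The heavy chain of myosin IIA, Myh9, was read by 5 probe sets. The brightest, 1420172_at, gave intensities of 4800 and 5050 in pseudopodia and 5652 and 5517 in cell bodies. Both pseudopodia arrays lay below both cell body arrays, by a margin that did not pass the test (log2 difference -0.18, SE 0.14, adjusted p = 0.456), and the interval of the fold of pseudopodia over cell bodies was 0.684 to 1.14. Probe set 1420171_s_at read 4235 and 4437 against 3961 and 4486, and 1417472_at read 2383 and 2885 against 2553 and 2967. At both of these, and at 1420170_at (1439 and 1369 against 1267 and 1581), the compartments overlapped, with differences of 0.040, -0.070 and -0.012 and adjusted p = 0.892, 0.838 and 0.974 by limma. All 4 intervals lay inside a 1.5-fold difference in either direction.

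The fifth Myh9 probe set stood apart from these. At 1440708_at the pseudopodia arrays read 188 and 303 and the cell body arrays 505 and 361, so every pseudopodia value lay under every cell body value, though the arrays of each compartment were themselves far apart. The difference was -0.84 (SE 0.31, limma adjusted p = 0.156), the largest of any member. Relative to the brightest Myh9 probe set on the same array, which cancels any scaling between arrays, the signal was 3.92% and 6.01% in pseudopodia and 8.94% and 6.55% in cell bodies. Which part of the Myh9 transcript each probe set covers was not examined here, and whether the probe sets truly differ in their compartments was not tested.

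Myosin IIB, with its heavy chain from Myh10, had 1 probe set above the filter. Intensities at 1452740_at were 1540 and 1478 in pseudopodia and 1334 and 1644 in cell bodies. The pseudopodia values lay between those of the cell bodies, with a difference of 0.026 (SE 0.17, limma adjusted p = 0.939) and a fold interval of 0.748 to 1.39. The other Myh10 probe set, 1441057_at, read 20 to 26.5 on the 4 arrays, at or just over the floor, and was not tested.

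**Figure D2:**
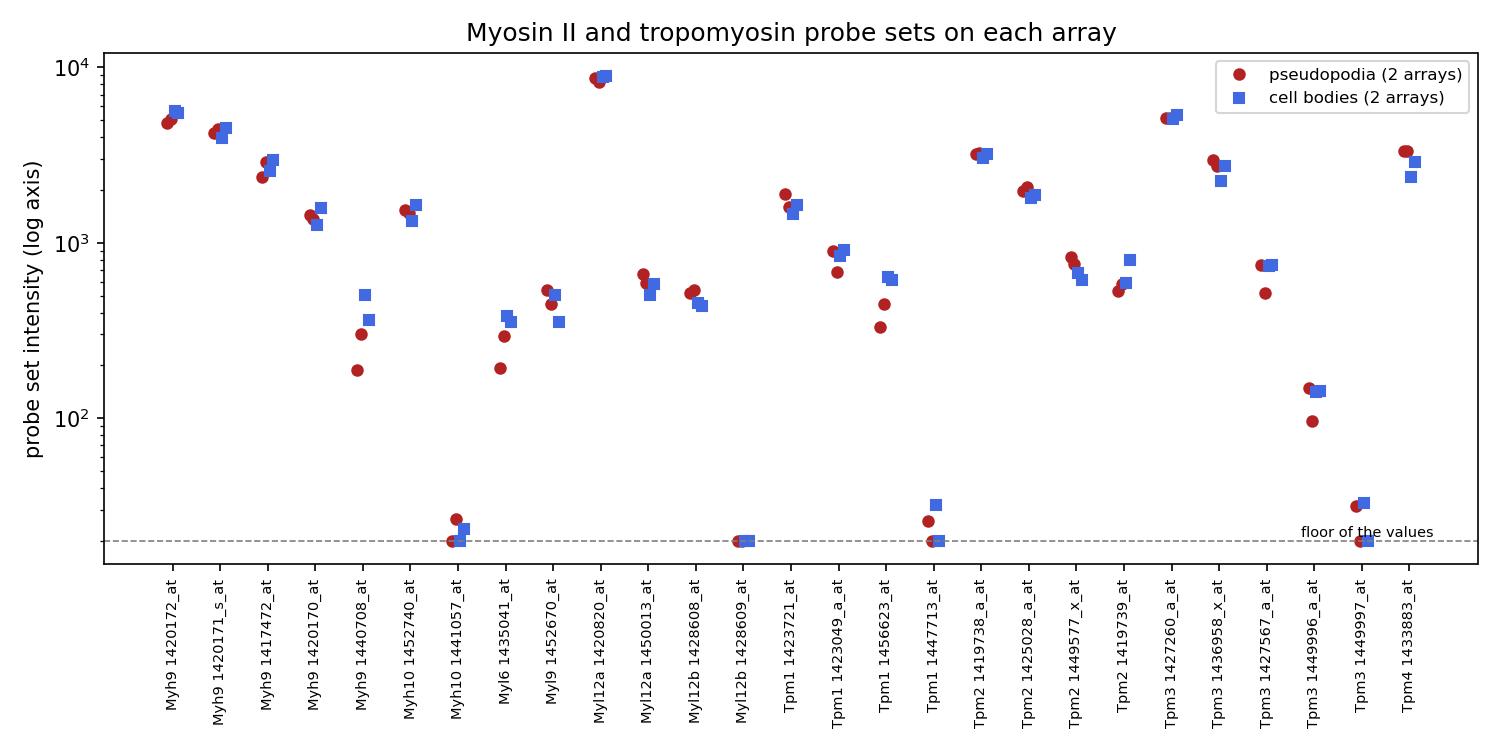
Intensity on each array (vertical log axis) for all 27 probe sets, grouped by gene, with pseudopodia as circles and cell bodies as squares; the dashed line is the floor of 20. The arrays of both compartments lie close together for most bright probe sets, and 4 probe sets lie at or near the floor.

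Among the light chains, Myl12a and Myl12b encode the regulatory light chains of non-muscle myosin and lie next to each other on chromosome 17, with 0 protein-coding genes between them in RefSeq's order. The bright Myl12a probe set, 1420820_at, read 8656 and 8269 in pseudopodia and 8842 and 8900 in cell bodies. Its pseudopodia values were the lower ones by a small margin (log2 difference -0.068, SE 0.14, limma adjusted p = 0.792), at intensities high on the scale. The dimmer one, 1450013_at, went the other way, with 660 and 591 against 503 and 583 and a difference of 0.21 (SE 0.16, limma adjusted p = 0.469). Their directions thus differed although they read 1 gene. Myl12b read 518 and 540 in pseudopodia against 452 and 438 in cell bodies at 1428608_at. These arrays did not overlap and replicates agreed closely, and the difference of 0.25 (SE 0.14, limma adjusted p = 0.316) still did not pass, with a fold interval of 0.922 to 1.53. Myl12b's second probe set, 1428609_at, lay at the floor of 20 on all 4 arrays. The proteins of these genes are close copies of each other, and how far their probe sets share signal was not tested.

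Myl9, the regulatory light chain typical of smooth muscle and also made by fibroblasts, was read by 1452670_at at 535 and 449 in pseudopodia and 507 and 355 in cell bodies. The compartments overlapped, the difference was 0.21 (SE 0.23, limma adjusted p = 0.614), and the fold interval of 0.759 to 1.76 is wide because the arrays within each compartment differed.

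Myl6, the essential light chain, had 1 probe set of its own. At 1435041_at pseudopodia read 194 and 296 and cell bodies 382 and 351. All pseudopodia values were lower, with a difference of -0.61 (SE 0.24, limma adjusted p = 0.183), and the interval allows a cell body excess of up to 2.37-fold. A pair of far brighter probe sets carries Myl6 together with the predicted genes Gm8894 and Gm5526 and so is not among the members; they are named here after their values were seen. The first of them, 1424269_a_at, read 6264 and 5530 in pseudopodia and 6764 and 6223 in cell bodies, and the second, 1434396_a_at, read 7106 and 6587 against 6996 and 6752. Compartments overlapped at both, with differences of -0.14 and -0.0066 and limma adjusted p = 0.610 and 0.982, so the gap seen at the dim probe set was not seen at these.

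The tropomyosins had 12 tested probe sets, 6 with differences above 0 and 6 below, and 0 passed the test. How far probe sets of these related genes share signal was not tested. Tpm4, a tropomyosin gene that makes a short cytoskeletal form, had the largest positive difference of all members. Its 1 probe set, 1433883_at, read 3357 and 3352 in pseudopodia and 2376 and 2885 in cell bodies. Both pseudopodia arrays were higher, and nearly identical, while the cell body arrays lay well apart. The difference was 0.36 (SE 0.16, limma adjusted p = 0.234), a fold of 1.28 with an interval of 0.950 to 1.73.

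Tpm2, the beta tropomyosin gene, gave 3 probe sets with pseudopodia higher on every array and 1 with pseudopodia lower on every array. The brightest, 1419738_a_at, was nearly flat, at 3201 and 3239 against 3052 and 3198 (difference 0.043, SE 0.14). At 1425028_a_at the intensities were 1981 and 2069 against 1795 and 1861, a difference of 0.15 (SE 0.14). At 1449577_x_at they were 829 and 758 against 670 and 612, a difference of 0.31 (SE 0.15). At the fourth, 1419739_at, they were 528 and 578 against 586 and 798, a difference of -0.31 (SE 0.20). These adjusted p-values by limma were 0.872, 0.549, 0.256 and 0.390 in that order. Relative to the brightest Tpm2 probe set on the same array, 1449577_x_at stood at 25.9% and 23.4% in pseudopodia and 21.9% and 19.1% in cell bodies, while 1419739_at stood at 16.5% and 17.9% against 19.2% and 25.0%. These ratios parted the compartments in opposite directions, neither of them tested.

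Tpm1, the alpha tropomyosin gene, had 1 tested probe set where the compartments did not overlap and 2 where they did. At its brightest probe set, 1423721_at, pseudopodia read 1891 and 1591 and cell bodies 1459 and 1637. These overlapped, with a difference of 0.17 (SE 0.17, limma adjusted p = 0.577). Probe set 1423049_a_at also overlapped, at 897 and 678 against 841 and 911, with a difference of -0.17 (SE 0.19, limma adjusted p = 0.632). At 1456623_at the pseudopodia arrays read 332 and 449 and the cell body arrays 640 and 610, well apart. Its difference of -0.69 (SE 0.20) had the lowest adjusted p of any member, 0.0943 by limma, and the cell body excess was 1.62-fold with an interval of 1.13 to 2.32. With an intensity trend in limma's prior variance this probe set was called (adjusted p = 0.0352). Over the other alternatives with all arrays that tested it, its limma adjusted p ranged from 0.0551 with the stricter filter to 0.319 with no filter. The lowest adjusted p of any member ranged from 0.0551 to 0.163 over these alternatives, the last being that of Myl12b 1428608_at. As a share of the brightest Tpm1 probe set on the same array, 1456623_at stood at 17.5% and 28.2% in pseudopodia and 43.9% and 37.3% in cell bodies, and 1423049_a_at at 47.4% and 42.6% against 57.6% and 55.6%. Both ratios were lower in pseudopodia on every array, and neither was tested. Tpm1 makes many isoforms by alternative splicing, and which of them each probe set reads was not examined here. The last Tpm1 probe set, 1447713_at, read 20 to 32.1 and was not tested.

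Tpm3, the gamma tropomyosin gene, differed least at its brightest probe set. Intensities at 1427260_a_at were 5172 and 5141 in pseudopodia and 5056 and 5366 in cell bodies, with a difference of -0.015 (SE 0.14, limma adjusted p = 0.960) and a fold interval of 0.768 to 1.28. At 1436958_x_at they were 2948 and 2733 against 2260 and 2734, at 1427567_a_at 750 and 516 against 733 and 745, and at 1449996_a_at 149 and 96.9 against 142 and 142. All 3 overlapped, with differences of 0.19, -0.25 and -0.24 and limma adjusted p = 0.515, 0.529 and 0.585. At the last pair the low value of pseudopodia replicate 2 set the difference, which was 0.022 and 0.073 without that array. Probe set 1449997_at lay at 20 to 32.9 and was not tested.

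**Figure D3:**
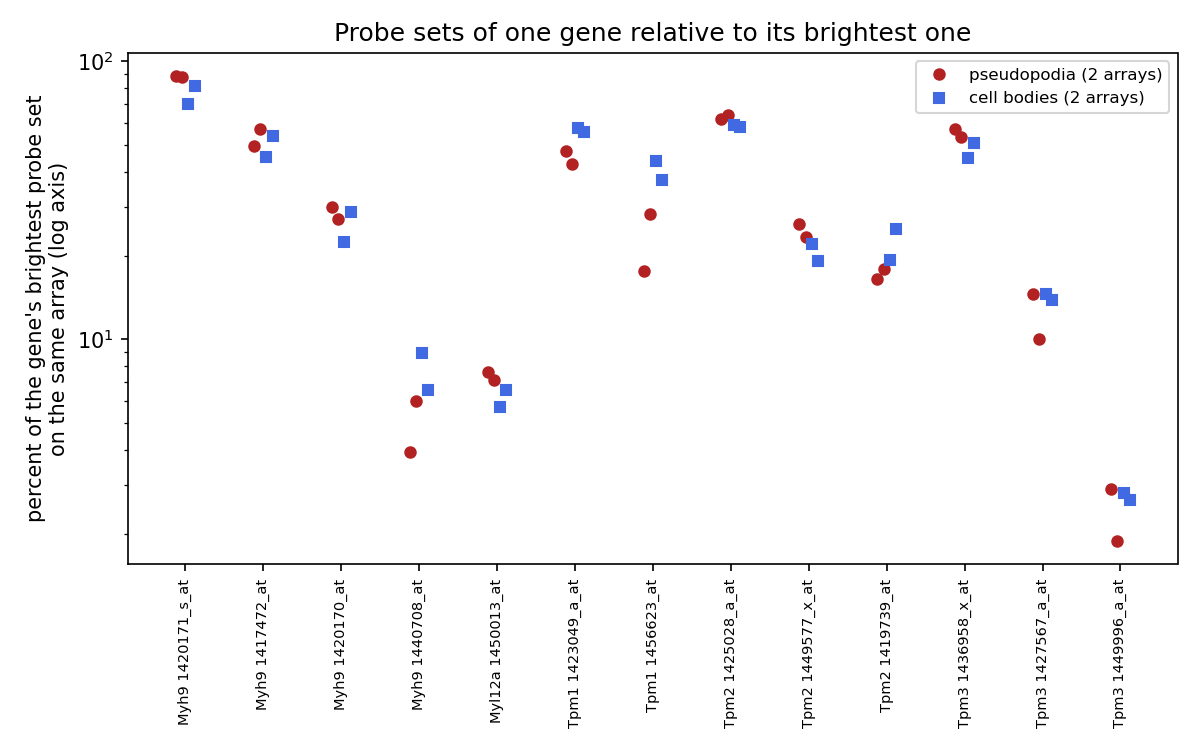
Signal of each further tested probe set of Myh9, Myl12a, Tpm1, Tpm2 and Tpm3 as a percentage of that gene's brightest probe set on the same array (vertical log axis), with pseudopodia as circles and cell bodies as squares. The ratios for Myh9 1440708_at, Tpm1 1456623_at, Tpm1 1423049_a_at and Tpm2 1419739_at are lower on both pseudopodia arrays, and those of Myh9 1420171_s_at, Myl12a 1450013_at, Tpm2 1425028_a_at, Tpm2 1449577_x_at and Tpm3 1436958_x_at are higher. Those of Myh9 1417472_at, Myh9 1420170_at, Tpm3 1427567_a_at and Tpm3 1449996_a_at overlap. The ratios were not tested, and how often such ratios part the compartments at other genes was not computed.

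Brightness went along with how far the members lay from 0. The 12 probe sets with a mean intensity of at least 1000 had a median absolute difference of 0.069 on the log2 scale. Over all 4615 tested probe sets that bright it was 0.19. The intervals of the 12 all lay inside 2-fold, against 82.0% of the 4615. The 11 dimmer ones had a median absolute difference of 0.25, against 0.33 over all dimmer probe sets tested. Of their 11 intervals 8 lay inside 2-fold, against 56.7% over all dimmer probe sets tested. For Myh9 the dimmest probe set had the largest difference, while the brightest had a larger one than the 3 between them. The dimmer probe sets also had the larger errors, with a median SE of 0.20 against 0.16 for the bright ones. Over all tested probe sets these medians were 0.19 for the dimmer and 0.15 for the bright ones.

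**Figure D4:**
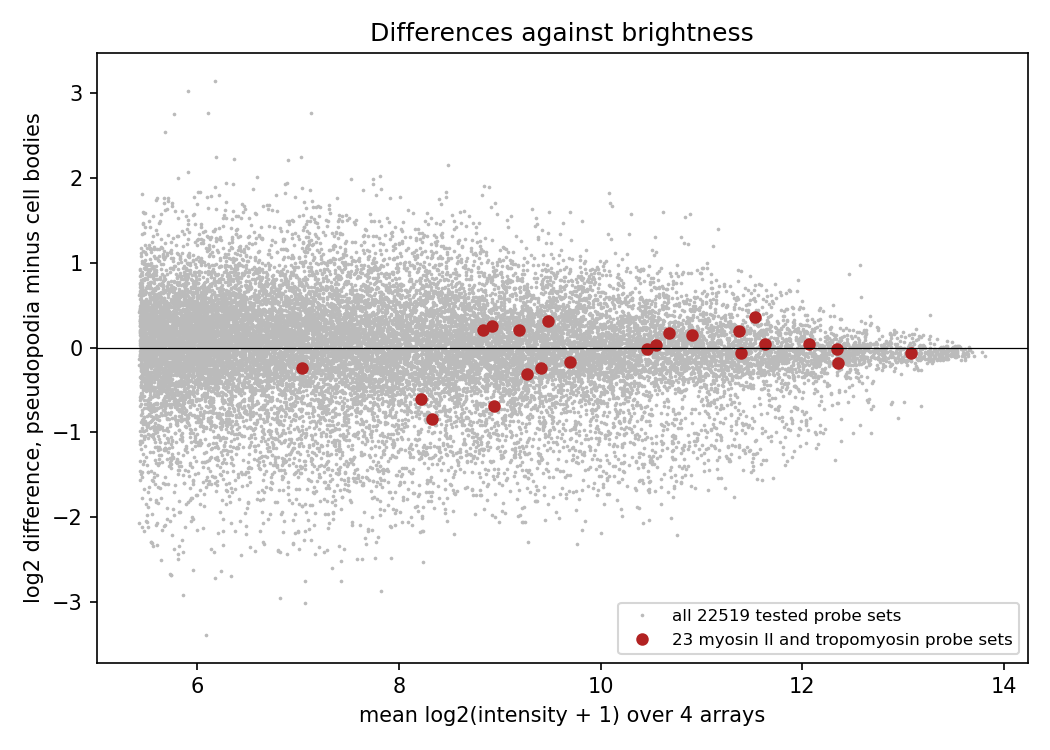
Log2 difference between pseudopodia and cell bodies (vertical axis) against the mean log2(intensity + 1) over 4 arrays (horizontal axis) for 22519 tested probe sets in grey and the 23 of myosin II and the tropomyosins in red. The red points lie between -0.84 and 0.36, and those with a mean of at least 1000 lie between -0.18 and 0.36.

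Regulators and partners of myosin II, proteins that lie along actin filaments with tropomyosin, and chains of other myosins were listed as well. These lists hold 109 pathway genes in all, each read by its brightest probe set with 1 symbol. Of 63 that could be tested, 3 rose in pseudopodia and 0 fell, against 4.25% and 6.89% of all 11320 tested genes, with 9 at an unadjusted p under 0.05 and a median log2 difference of 0.035. The strongest rise was that of Rock1, a kinase that phosphorylates the regulatory light chain and inhibits its phosphatase. Its intensity was 481 and 454 in pseudopodia and 215 and 222 in cell bodies, so the pseudopodia held a level 2.14-fold as high with an interval of 1.66 to 2.76 (log2 difference 1.10, SE 0.14, limma adjusted p = 0.0255). The 2 other tested Rock1 probe sets were also higher on both pseudopodia arrays, one at a difference of 1.08 (limma adjusted p = 0.0271) and the dimmer at 1.73 (limma adjusted p = 0.0884). The Rock1 probe sets share a source sequence in the annotation and were read on the same arrays, so they are not independent readings. Without any 1 array, where limma called 0 of all probe sets, the Rock1 difference was 1.05 to 1.14 (adjusted p = 0.0629 to 0.139), and no filter on low values gave adjusted p = 0.0776.

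Other switches of the motor did not pass. Of 23 tested kinases, phosphatase subunits, phosphatase inhibitors and upstream regulators, 1 rose, which was Rock1, and 0 fell, with a median of -0.048. Of all 11320 tested genes, 4.25% rose and 6.89% fell. Ppp1r12a, the subunit that targets the phosphatase to myosin, read 409 and 451 in pseudopodia against 274 and 268 in cell bodies, a difference of 0.66 just outside the threshold (SE 0.15, limma adjusted p = 0.0544). Mylk, the calmodulin-dependent kinase of the light chain, read 253 and 371 against 135 and 193 (difference 0.92, SE 0.28, limma adjusted p = 0.107). Both were higher on every pseudopodia array. Ppp1r14b, a phosphatase inhibitor and the brightest of the list, had a difference of -0.048.

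Of 17 tested heavy chains of other myosins, 2 rose and 0 fell, against 4.25% and 6.89% of all 11320 tested genes. Myo5a, a cargo carrier that walks along actin, read 425 and 392 in pseudopodia against 213 and 195 in cell bodies (difference 1.00, SE 0.15, limma adjusted p = 0.0285). Its 2 other tested probe sets were higher in pseudopodia as well, at 0.76 (limma adjusted p = 0.0475) and 0.38 (limma adjusted p = 0.297). Myo1h, a single-headed class I myosin, read 238 and 230 against 139 and 136 (difference 0.76, SE 0.14, limma adjusted p = 0.0382). Without any 1 array, where limma called 0 of all probe sets, the difference of Myo5a was 0.93 to 1.06 and that of Myo1h 0.74 to 0.78. With no filter on low values neither was called, at limma adjusted p = 0.113 and 0.0743. Myh14, the heavy chain of the third non-muscle myosin II, was dim, at 54.5 and 61.8 against 50.2 and 47.1 (difference 0.25, limma adjusted p = 0.347). Myo1c, the brightest of the list, had a difference of -0.21.

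Partners that bind myosin II or lie along actin filaments with tropomyosin gave 0 calls, where 4.25% of all tested genes rose and 6.89% fell. Among 10 tested assembly and binding partners the median was -0.12, and all 10 intervals lay inside 2-fold. S100a4, which takes myosin IIA filaments apart and is also on the fibroblast list, had a difference of -0.12 at an intensity of 9697 to 11172. Among 10 tested thin filament proteins the median was 0.17. Cald1, the caldesmon gene, whose protein binds tropomyosin and myosin, read 5783 and 5820 in pseudopodia against 4194 and 4767 in cell bodies (difference 0.38, SE 0.15, limma adjusted p = 0.184). Tmod3, a cap of tropomyosin-coated pointed ends, read 640 and 561 against 425 and 499 (difference 0.38, limma adjusted p = 0.220), and its relative Tmod1 read 85.4 and 72.8 against 155 and 118 (difference -0.77, SE 0.20, limma adjusted p = 0.0788). These tropomodulins thus lay on opposite sides of 0 without passing the test, and their difference from each other was not tested. Cnn3, a calponin and the brightest of that list, had a difference of 0.026. The 4 tested light chains of muscle and other myosins had a median of 0.18 and 0 calls, and Myl3, the brightest of them, had a difference of -0.0066.

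**Figure D5:**
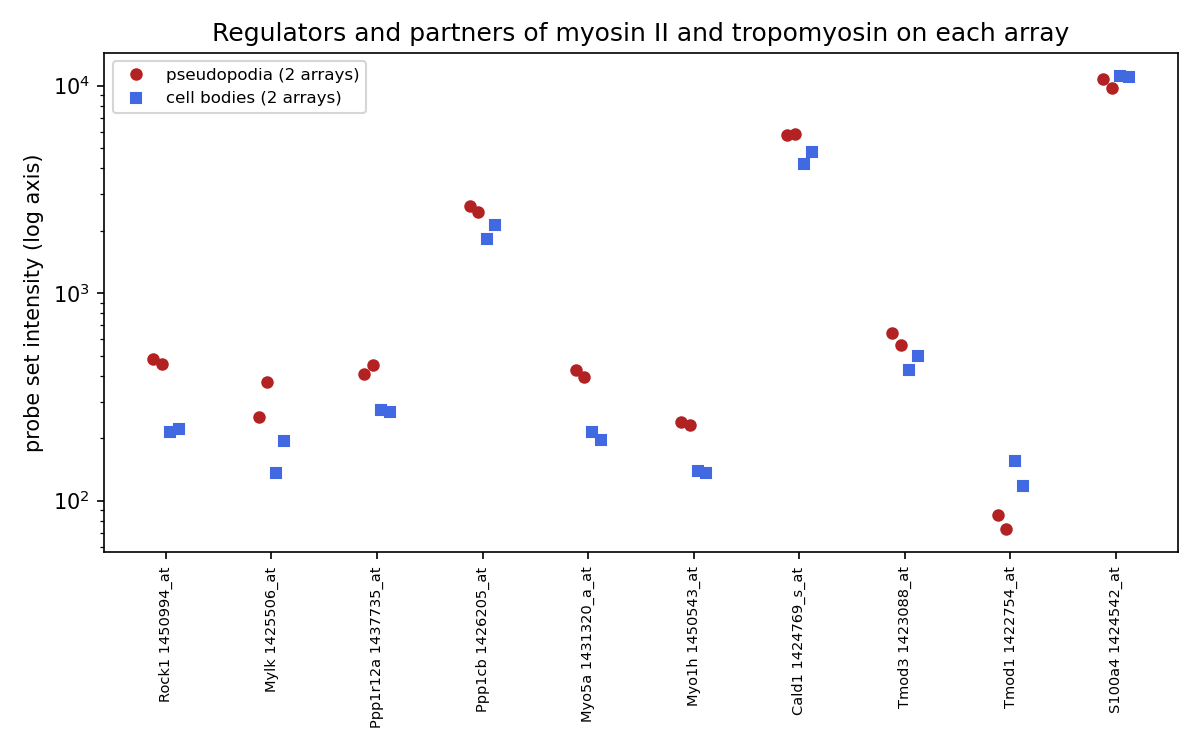
Intensity on each array (vertical log axis) for 10 regulators, partners and other myosins, chosen after their values were seen, with pseudopodia as circles and cell bodies as squares. Rock1, Myo5a and Myo1h, which passed the test, have both pseudopodia arrays above both cell body arrays.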

How the data were processed

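RNA from 2 pseudopodia and 2 cell body samples, grouped by their titles, was read on 1 array each. Each deposited value is the linear intensity of a probe set; the authors' probe summary and scaling between arrays are not given here. Log2(intensity + 1) was tested with limma 3.58.1 in R 4.3.3 (lmFit, eBayes, two-sided, no covariate; 2 residual and 2.70 prior degrees of freedom) over the 22519 of 45037 non-control probe sets whose mean reached the median (an intensity of 42.0), with Benjamini-Hochberg adjustment at 0.05. A fold is the antilog of a log2 difference. With 4 arrays an exact permutation test cannot give p under 33.3%, so none was run. The array records list the same chip lot, fluidics station and scan day, so no batch could be fitted. Of 34945 probe sets with 1 symbol, 34741 gene IDs matched RefSeq (GRCm38.p6) and 0 symbols changed. Members, lists and tests were chosen with earlier results of these data known. Named genes are all members and, per list, up to 4 called genes each way and the brightest one; others named were chosen after their values were seen. No member was called, so none was matched to genes of like pattern. The script was tested on simulated data. Alternatives varied the filter, pseudocount, scaling, probe set choice, variance prior, replicate block and arrays.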

Additional observations from a re-analysis of the deposited data

How the results depend on the processing

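With only 2 arrays a group, calls depend on the whole fit: without any 1 array limma called 0 of all probe sets (4605 to 5845 at an unadjusted p under 0.05), 0 members in each direction and 0 pathway genes in each direction. Over all probe sets, 2645 calls became 73 with no filter on low values, 1654 with each gene by its brightest probe set and 4440 with an intensity trend in the prior variance. Members were called 0 times higher in every alternative and 0 times lower in all but the intensity trend, which called 1. The pathway genes called higher, 3 in the main setting, were 0 with no filter, 5 with the stricter filter (mean of at least 100), 7 with the trend and 5 with the replicate block; those called lower, 0 in the main setting, were 1 with the stricter filter, 1 with the trend and 1 with the replicate block. The replicate block called 3350 of all probe sets and 0 members; same-numbered samples had deviations correlated at 0.33 over all tested probe sets and -0.22 over the members, and with 2 pairs the numbers are not shown to pair the samples. Median differences of the members ranged from -0.073 to 0.038 without 1 array, and were 0.11 with quantile normalization, against 0.041 over all probe sets then. Signs changed at members whose main difference lay between -0.25 and 0.21, none of them called in any setting. With quantile normalization Myh9 1417472_at was 0.051, Myh9 1420170_at 0.093 and Tpm3 1427260_a_at 0.11, and with median centring the latter pair were 0.028 and 0.025. Without 1 array the ranges were -0.050 to 0.13 for Myh9 1420171_s_at, -0.21 to 0.068 for 1417472_at, -0.17 to 0.15 for 1420170_at, -0.12 to 0.18 for Myh10 1452740_at, -0.048 to 0.47 for Myl9 1452670_at, -0.37 to 0.035 for Tpm1 1423049_a_at, -0.058 to 0.028 for Tpm3 1427260_a_at, -0.52 to 0.022 for 1427567_a_at and -0.55 to 0.073 for 1449996_a_at.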
